A study of Mus musculus with 6 samples.

Results

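The genes described here encode the nuclear lamina and the proteins that tie it to the inner nuclear membrane and to chromatin. They are the A-type lamin gene Lmna, the B-type lamin genes Lmnb1 and Lmnb2, the lamin B receptor gene Lbr, the LEM-domain genes Emd, Tmpo and Lemd3, the chromatin-bridging factor gene Banf1, and the SUN-domain genes Sun1 and Sun2. These 10 genes were taken by symbol from the 26898 genes of the deposited table, each matched 1 row, and all 10 passed the filter on low expression. Expression was measured by RNA sequencing in primary mouse embryonic fibroblasts (MEFs) of the C57BL/6 strain at passage 3. The WT group (WT 4, 5 and 8) had the genotype Kansl1fl/fl, in which both Kansl1 alleles can be recombined, and carried no Cre. The KO group (KO 3, 7 and 10) had the genotype Kansl1fl/fl/CAG-cre, with a tamoxifen-inducible Cre driven by CAG, a promoter active in most cell types. All 6 samples received 1 μM tamoxifen for 48 h, so the groups differed in both Kansl1 and Cre.

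The lamina is a meshwork of intermediate filament proteins under the inner nuclear membrane. It gives the nucleus its shape, anchors heterochromatin at the nuclear edge and is dismantled and rebuilt at every mitosis. LEM-domain proteins hold chromatin at the membrane through the small DNA-binding protein encoded by Banf1, and SUN proteins span the space between both nuclear membranes to link the lamina with the cytoskeleton. Lamin A is expressed strongly in mesenchymal cells such as fibroblasts, and B-type lamin expression is known to decline when fibroblasts stop dividing. The KAT8-NSL acetyltransferase complex, to which KANSL1 belongs, is known to act on lamins, and the comparison asks how transcripts of the lamina and envelope differed between KO and WT MEFs.

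None of these 10 genes passed in the KO MEFs at an adjusted p-value under 0.005 together with a log2 fold change beyond 0.5. These limits are those of the study, applied here to limma on log2(TPM + 1) in place of the study's own count-based test. At an unadjusted p-value under 0.05, 5 of the 10 were lower in KO MEFs and none was higher, where 39.4% of all tested genes passed in either direction and 27.2% were lower. Both B-type lamin genes, Lbr and Tmpo had an adjusted p-value under 0.05 in limma with KO means at 65.1% to 75.02% of WT, while Lmna was 110.2% of WT and did not pass. Lbr and Tmpo stayed under 0.05 in every alternative run (highest adjusted p-values in limma 0.0313 and 0.0342), whereas both B-type lamin genes exceeded it in several. With the fold limit of 0.5 kept, 2 of the 10 (Lbr and Tmpo) were lower at an adjusted p-value under 0.05, as were 16.6% of all tested genes. Of all 14799 tested genes, 9.03% were called lower and 1.64% higher at the thresholds of the study, and 20.7% were lower and 7.14% higher at an adjusted p-value under 0.05 with no fold requirement. The median log2 fold change of the 10 genes was -0.25, and that of all tested genes was -0.07. Every KO sample lay below every WT sample for 4 of the 10 genes (29.9% of tested genes) and above for none (13.3%). This count depended on scaling. Without Gm23935, an abundant short RNA described below, 8 of the 10 were lower in every KO sample (34.6% of tested genes) and Lmna was higher in each (19.8%). With median-of-ratios scaling 6 were lower (29.5%) and Lmna was again higher (27.3%). With 3 samples a group, a gene that did not pass is not shown to be unchanged. In bulk samples, fewer cells of a type and less RNA per cell cannot be told apart.

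Promoters of Lbr, Tmpo and Lmnb2 are shown because these genes had low p-values, with Sun2 beside them for its pair of CCAAT boxes. The choice was made after the motif matches were seen. Sun2 took the place of Lmna, whose first window held no match and whose second held a CCAAT 131 bases before the start site. Each is the 250 bases before a RefSeq start site on GRCm38.p6, written 5′ to 3′ on the strand of the gene. Windows were available for 9 of the 10 genes, and Lmnb1 had none. The 4 motifs searched on both strands are linked with growth-related genes, namely CCAAT (the NF-Y box), TTGGCGC and TTCGCGC (E2F-type elements) and TTTGAA (a cell cycle homology region), and CCAAT reversed to ATTGG can share bases with TTGGCGC. Capitals mark every match.
Lbr (chr1:181842402-181842651, minus strand): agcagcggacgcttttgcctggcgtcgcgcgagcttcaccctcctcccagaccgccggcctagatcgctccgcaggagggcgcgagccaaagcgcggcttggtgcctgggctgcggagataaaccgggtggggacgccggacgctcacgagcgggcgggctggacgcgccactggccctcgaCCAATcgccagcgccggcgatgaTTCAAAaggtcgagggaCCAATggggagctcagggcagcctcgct
Tmpo (chr10:91171620-91171869, minus strand): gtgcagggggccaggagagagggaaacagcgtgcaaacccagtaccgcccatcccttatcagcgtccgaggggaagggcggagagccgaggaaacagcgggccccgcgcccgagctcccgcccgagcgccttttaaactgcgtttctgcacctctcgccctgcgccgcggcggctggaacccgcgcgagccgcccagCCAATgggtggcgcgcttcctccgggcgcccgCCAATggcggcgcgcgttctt
Sun2 (chr15:79742537-79742786, minus strand): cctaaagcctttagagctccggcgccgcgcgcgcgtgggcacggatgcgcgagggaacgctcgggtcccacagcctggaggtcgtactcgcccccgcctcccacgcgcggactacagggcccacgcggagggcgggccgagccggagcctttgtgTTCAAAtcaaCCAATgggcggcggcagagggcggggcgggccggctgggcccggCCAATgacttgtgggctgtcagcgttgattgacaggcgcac
Lmnb2 (chr10:80918246-80918495, minus strand): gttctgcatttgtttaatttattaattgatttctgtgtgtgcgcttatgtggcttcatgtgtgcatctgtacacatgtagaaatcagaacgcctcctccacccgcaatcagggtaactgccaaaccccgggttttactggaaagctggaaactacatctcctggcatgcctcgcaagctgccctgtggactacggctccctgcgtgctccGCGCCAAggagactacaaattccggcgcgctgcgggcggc

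The Lbr window held CCAAT starting 68 and 28 bases before the start site, the Tmpo window held it 53 and 21 bases before, and the Sun2 window 85 and 41 bases before. In Sun1 it was found on the opposite strand, 97 and 15 bases before the start. Thus 4 of the 9 genes had at least 2 CCAAT matches in their first listed window, where 10.1% of all 32851 windows had as many. At least 1 match was present in the first window of 7 of the 9 genes and in 33.8% of all windows. These shares were not counted alike, since the 9 genes had 14 windows in all and only first windows entered their counts. Lbr and Sun2 also held TTTGAA on the opposite strand, 45 and 95 bases before the start, a match seen in 16.0% of windows. Lmnb2 held no CCAAT but a TTGGCGC on the opposite strand, 40 bases before the start, which 1.97% of windows share, and TTCGCGC, present in 1.28% of windows, was in no window of these genes. The 4 printed windows differed in CpG. Lbr had 31 CpG, Tmpo 32, Sun2 31 and Lmnb2 14 in 250 bases, and the median of all windows was 6. Among the windows not printed, both of Lmna (1 and 4 CpG), the second of Lmnb2 (5) and the second of Sun1 (1) were below that median. Sun1, with an adjusted p-value in limma of 0.361, also held 2 CCAAT matches, but on the opposite strand and further apart than in Lbr and Tmpo. Holding 2 matches was thus not limited to the genes with low p-values. A match describes the letters of the window and not binding. The table lists a second start site for 5 of the genes, Tmpo and Lmnb2 among them, whose windows are not printed.

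Some libraries stood apart, and this touches every value below. TPM divides a fixed total among all RNAs, and a single 57 bp RNA, Gm23935, took 15.5% of TPM in WT 4, 18.4% in WT 5, 24.3% in WT 8, 25.6% in KO 3, 15.5% in KO 7 and 19.9% in KO 10. WT 8 was the lowest WT sample for 9 of the 10 genes and KO 3 was the lowest KO sample for all 10. WT 4 differed from the other WT libraries in another way. Its recovered reads had a chi-square per degree of freedom of 29.3 against WT 5 and 26.4 against WT 8, where WT 5 and WT 8 gave 4.0, and its Col1a1, a fibroblast collagen gene, was at 3080 TPM against 5805 and 4958 TPM. Without WT 4 none of the 10 genes passed, and the log2 fold changes of Lbr and Tmpo were -0.52 and -0.54. When Gm23935 was left out and TPM rescaled, the coefficient of variation of Lmna fell from 5.17% to 1.59% in WT and from 7.82% to 1.55% in KO. The coefficient also fell in both groups for the other genes, except that of Lmnb2 in WT, which went from 11.4% to 11.6%. Expression is given as deposited unless the rescaled value is named. Kansl1, the targeted gene, was at 28.5, 26.7 and 24.4 TPM for WT 4, 5 and 8, against 13.7, 15.8 and 14.4 TPM for KO 3, 7 and 10 (log2 fold change -0.82, SE 0.11, adjusted p-value in limma 0.000859). Every KO sample was below every WT sample, and the KO mean was 55.1% of WT. These TPM values cover the whole gene, so they do not show how far the floxed part was lost. Reads assigned to genes, recovered from the TPM steps, ranged from 17655495 to 27718259 per sample. Between 395 and 20414 of these fell on each gene in each sample, the fewest on Lmnb2 in KO 3.

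Further differences between the groups are given here as measured facts, and their part in the results was not tested. Sex is not in the labels. Xist was at 117 TPM in KO 7 and below 0.03 TPM in each other sample, and the Y-linked gene Ddx3y was at 0 in KO 7 and at 49.6 to 63.2 TPM in the others. Of 12 fibroblast markers, 11 had a mean of at least 1 TPM, and the summed level of all 12 overlapped between groups, with 10530 to 15210 TPM in WT and 11230 to 14760 TPM in KO. S100a4 averaged under 1 TPM. Of 12 macrophage markers, 9 could be tested and 8 of these were higher in every KO than in every WT sample (13.3% of all tested genes were). The sum over all 12 was 41.1 to 47.95 TPM in WT and 85.1 to 170.2 TPM in KO, only Lyz2 passed the thresholds of the study, and Ptprc, Itgam and Aif1 stayed under 1 TPM. The sum of 6 epithelial markers was 72.3 to 81.2 TPM in WT and 84.2 to 106.8 TPM in KO, without overlap. None of the 4 that could be tested passed, Krt8 (adjusted p-value in limma 0.0446) and Krt18 (0.0741) were higher in every KO sample, and the defining markers Epcam and Cdh1 stayed under 1 TPM. Endothelial markers summed to 3.45 to 6.54 TPM in WT and 3.94 to 5.73 TPM in KO. Skeletal muscle markers summed to 80.4 to 107.9 TPM in WT and 70.6 to 86.5 TPM in KO, nearly all of it Des, and the 2 erythroid markers in the table summed to at most 1.01 TPM in any sample.

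**Figure D1:**
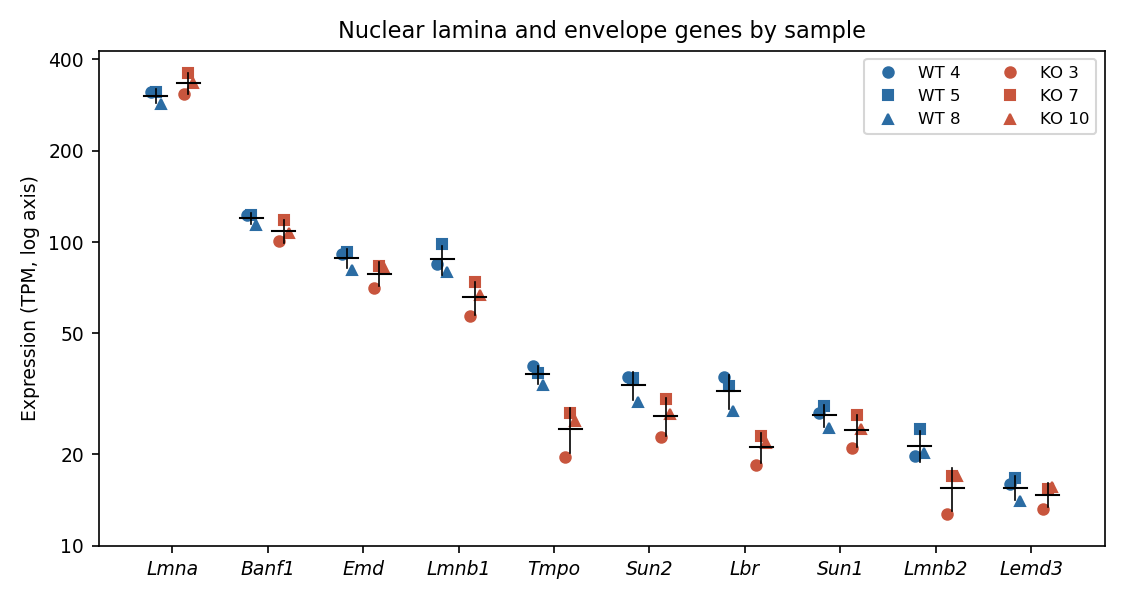
Expression of the 10 lamina and envelope genes in each sample, in TPM on a log axis, with genes ordered by their WT mean. Points are samples, horizontal bars are group means and vertical bars are SD (n = 3). Lmna lies highest, at 286 to 361 TPM over all samples, and the WT and KO points are apart for Lmnb1, Tmpo, Lbr and Lmnb2.

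Lmna was the most abundant of the genes in both groups and exceeded 97.7% of tested genes in its WT mean. In WT MEFs it was followed by Banf1, Emd and Lmnb1, then by Tmpo, Sun2, Lbr and Sun1, and at the lower end by Lmnb2 and Lemd3. The WT ranges of Emd and Lmnb1 overlapped, as did those of Tmpo and Sun2, of Sun2 and Lbr, and of Lbr and Sun1, so these neighbours cannot be ordered beyond their spread over samples, although the latter 3 pairs kept their order within each WT sample. In KO MEFs the first 4 places were unchanged, and below them Sun2 had the higher mean than Tmpo and Sun1 the higher mean than Lbr, again with overlapping ranges, as for Lmnb2 and Lemd3. These TPM values are per merged exon length over all isoforms of a gene, from 1496 bp for Banf1 to 10998 bp for Tmpo, so levels and order between genes also depend on how many isoforms are merged.

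Lmna (chromosome 3, 88480147 to 88509956, minus strand, mm10) encodes lamins A and C, the A-type lamins. WT 4, 5 and 8 measured 313, 312 and 286 TPM, against 309, 361 and 334 TPM for KO 3, 7 and 10. The lowest KO sample lay inside the WT range, so the groups overlapped. The mean was 304 ± 15.7 TPM (SD, n = 3) in WT and 335 ± 26.2 TPM (SD, n = 3) in KO, with a log2 fold change of 0.14 (95% interval -0.08 to 0.36, adjusted p-value in limma 0.329). Without Gm23935 the groups no longer overlapped, at 371 to 383 TPM in WT and 415 to 427 TPM in KO. The log2 fold change was then 0.16 with an adjusted p-value in limma of 0.0186, which still missed both thresholds of the study, and 13% of all genes were higher at an adjusted p-value under 0.05 in that setting, a combination chosen after seeing the data. With median-of-ratios scaling the log2 fold change of Lmna was 0.24 with an adjusted p-value in limma of 0.00364, still under the fold threshold. Over all alternatives its adjusted p-value in limma ranged from 0.00364 to 0.625.

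Lmnb1 (chromosome 18, 56707813 to 56753424, plus strand) encodes lamin B1, which remains attached to the membrane by its farnesyl group. It was at 84.8, 98.5 and 79.9 TPM for WT 4, 5 and 8, against 57.1, 73.6 and 66.7 TPM for KO 3, 7 and 10. Every KO sample lay below every WT sample, a separation seen in 29.9% of all tested genes. The mean was 87.7 ± 9.65 TPM in WT and 65.8 ± 8.28 TPM in KO (SD, n = 3 each), or 75.02% of WT, with a log2 fold change of -0.41 (SE 0.12, adjusted p-value in limma 0.0343).

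Lmnb2 (chromosome 10, 80901203 to 80918245, minus strand) encodes lamin B2 and was expressed below Lmnb1 in every sample. The WT values were 19.8, 24.2 and 20.1 TPM and the KO values 12.7, 16.95 and 16.9 TPM for KO 3, 7 and 10, again without overlap. KO expression was 72.6% of WT, a log2 fold change of -0.44 (SE 0.14, adjusted p-value in limma 0.0416). As with Lmnb1, the size of the difference was under the fold threshold. The adjusted p-values in limma of Lmnb1 and Lmnb2 exceeded 0.05 when all genes were tested (0.0754 and 0.0949), with no variance trend (0.0637 and 0.0636), without KO 3 (0.0940 and 0.0963), without KO 10 (0.0870 and 0.0594) and without WT 5 (0.136 and 0.151), and for Lmnb2 also without WT 8 (0.0639). Without both WT 8 and KO 3, a setting added after seeing the data, they were 0.0706 and 0.105. The adjusted p-values were lower with voom (0.0023 and 0.00731), with the filter at 10 TPM (0.00902 and 0.0114) and without Gm23935 (0.00947 and 0.0211), where neither gene passed both limits.

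Lbr (chromosome 1, 181815335 to 181843046, minus strand) encodes the lamin B receptor, an inner membrane protein that holds heterochromatin at the lamina and is also a sterol reductase. WT 4, 5 and 8 measured 35.8, 33.6 and 27.8 TPM, against 18.4, 22.98 and 21.9 TPM for KO 3, 7 and 10. All KO samples lay below all WT samples, and the log2 difference was close to that of Tmpo. The mean was 32.4 ± 4.15 TPM in WT and 21.1 ± 2.37 TPM in KO (SD, n = 3 each), which is 65.1% of WT. In limma the log2 fold change was -0.59 (95% interval -0.89 to -0.30) and the adjusted p-value in limma was 0.00866, just outside the threshold of 0.005. Its exons share 440 bp with the opposite-strand gene Dnah14, and whether counting used strand was not stated. Exons of Tmpo, Sun1 and Sun2 share shorter stretches with other opposite-strand genes.

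Tmpo (chromosome 10, 91147571 to 91181315, minus strand) encodes the LAP2 proteins, LEM-domain proteins that bind lamins and chromatin. It was at 38.99, 37.0 and 33.9 TPM for WT 4, 5 and 8, against 19.6, 27.4 and 25.7 TPM for KO 3, 7 and 10. The groups did not overlap, and KO 3 was the lowest sample. KO expression was 66.2% of WT, with a log2 fold change of -0.59 (95% interval -0.89 to -0.28) and an adjusted p-value in limma of 0.01099. The values sum over all LAP2 isoforms.

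Lbr and Tmpo passed both thresholds under 3 of the alternative settings. Without Gm23935 the adjusted p-values in limma were 0.0014 for Lbr and 0.00254 for Tmpo, with log2 fold changes of -0.58 and -0.57, and 11.8% of all tested genes were called lower. With a filter at 10 TPM they were 0.000432 and 0.000498, where 14.1% of genes were called lower, and with voom on the recovered reads 0.000226 and 0.000253, where 14.5% were called lower. With median-of-ratios scaling, where the median of all genes shifted by 0.09 and 9.91% were called lower, both had adjusted p-values below 0.005 but log2 fold changes of -0.50 (Lbr, -0.4997) and -0.49, which did not reach the fold threshold.

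Like Tmpo, the LEM-domain genes Emd and Lemd3 and also Banf1 did not pass the test, and their groups overlapped in TPM as deposited. Emd (chromosome X, 74254687 to 74261548, plus strand) encodes emerin, whose loss causes a muscular dystrophy. It was at 91.4, 92.7 and 80.9 TPM for WT 4, 5 and 8, against 70.5, 83.3 and 82.1 TPM for KO 3, 7 and 10. The groups overlapped (log2 fold change -0.17, 95% interval -0.41 to 0.07, adjusted p-value in limma 0.276). KO 7, the sample with Xist, lay beside KO 10 for this X-linked gene. Without Gm23935 the groups were apart, with at least 106.9 TPM in WT and at most 102.4 TPM in KO (adjusted p-value in limma 0.0501), and with voom the adjusted p-value was 0.0418. Of the merged exon length of Emd, 13.6% overlaps the pseudogene Gm14686 on the same strand, so strand would not tell those reads apart.

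Lemd3 (chromosome 10, 120923413 to 120979332, minus strand) encodes MAN1, an inner membrane protein that also binds SMAD proteins. Its 6 values lay between 13.2 and 16.7 TPM with the groups intermixed (log2 fold change -0.07, 95% interval -0.34 to 0.19), and the sign turned positive with median-of-ratios scaling. Banf1 (chromosome 19, 5364638 to 5367168, minus strand) was at 123, 123 and 114 TPM for WT 4, 5 and 8, against 100.5, 119 and 107 TPM for KO 3, 7 and 10. KO 7 fell within the WT range, and the log2 fold change of -0.14 (95% interval -0.36 to 0.08) did not pass. Without Gm23935 its groups were also apart, at 145.2 to 150.9 TPM in WT and 133.8 to 140.3 TPM in KO (adjusted p-value in limma 0.05495). Of the merged exon length of Banf1, 28.6% overlaps the opposite-strand gene Eif1ad, which leaves the source of those reads uncertain.

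Sun1 and Sun2 encode the inner membrane side of the bridge to the cytoskeleton. Sun1 (chromosome 5, 139200637 to 139249840, plus strand) was at 27.3, 28.9 and 24.5 TPM for WT 4, 5 and 8, against 21.03, 26.9 and 24.2 TPM for KO 3, 7 and 10, with overlapping groups (log2 fold change -0.16, 95% interval -0.43 to 0.11). Without Gm23935 its WT samples, from 32.28 TPM, lay just above its KO samples, up to 31.8 TPM (adjusted p-value in limma 0.135). Sun2 (chromosome 15, 79724070 to 79742536, minus strand) was at 36.0, 35.6 and 29.7 TPM for WT 4, 5 and 8, against 22.8, 30.5 and 27.1 TPM for KO 3, 7 and 10. WT 8 and KO 7 crossed, so that the groups overlapped by less than 1 TPM. The KO mean was 79.3% of WT (log2 fold change -0.33, 95% interval -0.62 to -0.03), with an adjusted p-value in limma of 0.0948. Without Gm23935 the groups were apart, at 39.2 to 43.55 TPM in WT and 30.66 to 36.1 TPM in KO, and the adjusted p-value in limma was 0.0172. It was 0.0212 with median-of-ratios scaling, 0.00482 with voom and 0.0486 with the filter at 10 TPM, and up to 0.240 in fits without 1 sample, with log2 fold changes that stayed under the fold threshold.

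**Figure D2:**
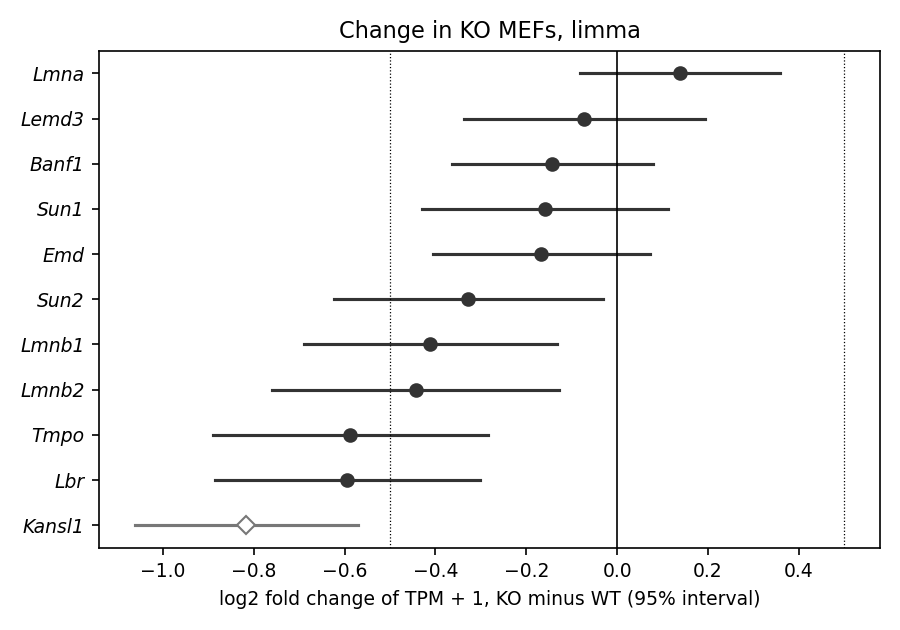
Log2 fold change of KO over WT on the log2(TPM + 1) scale for the 10 genes and Kansl1 (open diamond), with 95% intervals from limma (n = 3 per group). Dotted lines mark 0.5 and -0.5. Lbr and Tmpo lie past -0.5, the intervals of Lmnb1, Lmnb2 and Sun2 stay below 0, and Lmna is the only gene with a positive estimate.

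The balance between members was compared within each sample, since a ratio of 2 genes of the same sample is not moved by the share of TPM that Gm23935 takes. In WT 4, 5 and 8, Lmnb1 stood at 27.1%, 31.5% and 27.98% of the Lmna level. In KO 3, 7 and 10 it stood at 18.5%, 20.4% and 19.9%. The ranges were apart, and the log2 ratio was -1.80 ± 0.12 in WT and -2.35 ± 0.07 in KO (SD, n = 3 each), a difference of -0.56 by the unrounded means. Lmnb2 stood at 6.33%, 7.74% and 7.05% of Lmna in WT and at 4.11%, 4.70% and 5.06% in KO, a log2 difference of -0.61. Both ratios had p = 0.1 in an exact permutation test, two-sided, and 0.1 after adjustment over the 3 ratios compared. This is the smallest p that 3 samples against 3 can give, so the design could not reach 0.05. Among all other tested genes, 48% also had a ratio to Lmna that was lower in every KO than in every WT sample, so the lower ratio was not particular to the B-type lamins.

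Sun1 stood at 75.7%, 81.4% and 82.5% of the Sun2 level in WT 4, 5 and 8 and at 92.2%, 88.1% and 89.6% in KO 3, 7 and 10. The log2 ratio differed by 0.17, the groups did not overlap (p = 0.1, exact permutation test, two-sided), and 44.1% of other genes likewise had a ratio to Sun2 that was higher in every KO sample. The higher ratio was thus not particular to Sun1, and neither gene passed the test by itself.

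**Figure D3:**
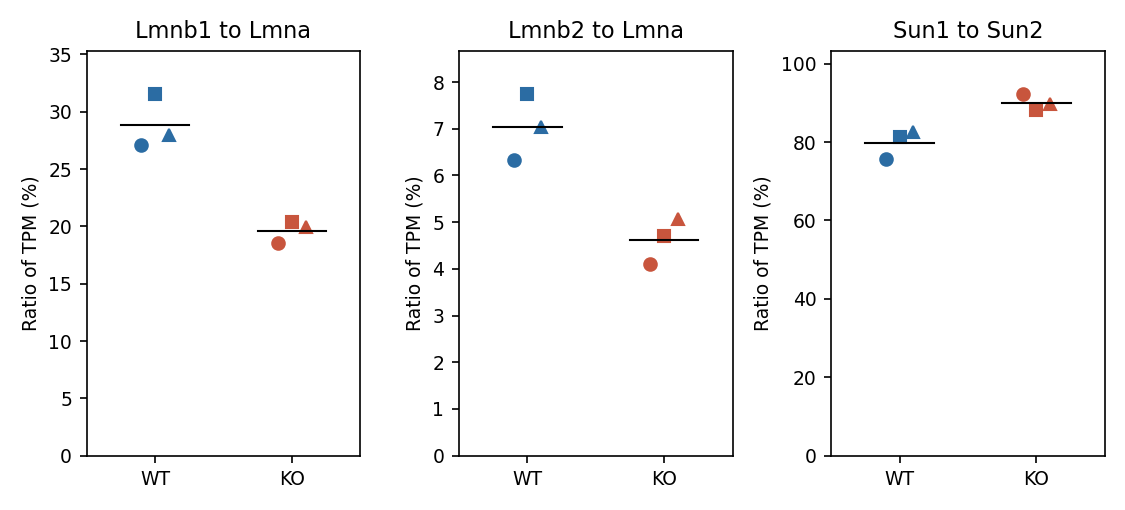
Ratio of Lmnb1 to Lmna, Lmnb2 to Lmna and Sun1 to Sun2 in each sample, as a percentage of TPM on axes that start at 0. Points are samples (circle, square and triangle for WT 4, 5, 8 and for KO 3, 7, 10) and bars are group means. No ratio overlaps between the groups, with Lmnb1 at 27.1% to 31.5% of Lmna in WT and at 18.5% to 20.4% in KO.

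Genes that act on the lamina and envelope were then examined, from a list of 26 of which 24 could be tested. In KO MEFs 3 were lower, none was higher and 21 did not pass, and the median log2 fold change was -0.21. At an adjusted p-value under 0.05 with no fold limit, 6 were lower and 2 higher (20.7% and 7.14% of all tested genes). The higher genes, named after their values were seen, were Lemd2 (133.5% of WT, adjusted p-value in limma 0.0268) and Lpin1 (158.5% of WT, 0.0236). Both were higher in every KO than in every WT sample. Zmpste24, the protease that cleaves prelamin A into mature lamin A, fell from 62.8, 51.6 and 48.2 TPM for WT 4, 5 and 8 to 24.9, 30.4 and 31.0 TPM for KO 3, 7 and 10. This was 53.1% of WT, with a log2 fold change of -0.89 (SE 0.13, adjusted p-value in limma 0.00136), beside a Lmna transcript level that did not pass. Vrk1, a kinase that phosphorylates the Banf1 product and releases it from chromatin, fell from 15.2 ± 1.53 to 7.42 ± 1.77 TPM (SD, n = 3 each; log2 fold change -0.96, adjusted p-value in limma 0.00279). Ankle1, a LEM-domain nuclease, fell from 6.81 ± 0.993 to 2.59 ± 0.534 TPM (SD, n = 3 each; log2 fold change -1.12, adjusted p-value in limma 0.0013). The share called lower was 12.5%, close to the 9.03% of all tested genes. Without KO 3 or in the fit of all genes, none of the list passed.

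The nuclear pore complex, which spans the envelope and carries traffic in and out of the nucleus, was represented by 31 genes, of which 30 were tested. Of these 8 were lower (26.7%, against 9.03% of all tested genes), none was higher and 22 did not pass, with a median log2 fold change of -0.32 against -0.07 for all tested genes. Nup133, a subunit of the outer ring of the pore, fell from 20.2, 16.6 and 14.4 TPM for WT 4, 5 and 8 to 4.99, 6.59 and 6.33 TPM for KO 3, 7 and 10, or 34.98% of WT (log2 fold change -1.37, SE 0.15, adjusted p-value in limma 0.000382). Nup37 and Nup43, of the same ring, fell to 45.5% and 53.8% of WT (log2 fold changes -1.04 and -0.84). Ndc1, which anchors the pore in the membrane, fell from 47.6 ± 5.65 to 27.0 ± 3.41 TPM (SD, n = 3 each; log2 fold change -0.80, adjusted p-value in limma 0.00206). The number of lower pore genes was 2 when all genes of the table were tested and 2 to 5 in fits without 1 sample.

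Chromatin genes with a known role at the nuclear edge showed no call. Of 11 tested, 0 passed the thresholds in limma, where 10.7% of all tested genes did. At an unadjusted p-value under 0.05 in limma there were 2, both lower. At that limit 27.2% of all tested genes were lower and 39.4% passed in either direction. Every KO sample lay below every WT sample for 3 of the 11 (29.9% of all tested genes) and above for 1 (13.3%). The median log2 fold change was -0.22. Suv39h2, which encodes a histone H3 lysine methyltransferase of heterochromatin, had a mean of 5.75 TPM in WT and 3.75 TPM in KO (log2 fold change -0.51, adjusted p-value in limma 0.0342). Cbx1, which encodes the heterochromatin protein HP1 beta and binds the Lbr product, had means of 47.8 and 38.1 TPM (log2 fold change -0.33, adjusted p-value in limma 0.0773).

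Expression of several lamina genes is known to follow the cell cycle, so proliferation genes were set beside them. Of 20 tested, 8 were lower (40%, against 9.03% of all tested genes) and none was higher. Every KO sample was below every WT sample for 18 of them (29.9% of all tested genes), with a median log2 fold change of -0.66. Bub1, Ccnb2, Ccna2 and Mki67 fell to 40.99%, 48.9%, 51.8% and 52.7% of WT. Their list summed to 1451, 1353 and 1183 TPM in WT 4, 5 and 8 and to 745, 967 and 927 TPM in KO 3, 7 and 10. KO 3, the lowest sample in this sum, also had the fewest reads and the largest Gm23935 share. When all genes of the table were tested, 0 of the proliferation genes passed in limma, and 2 to 9 passed in fits without 1 sample. Among 7 genes of cell cycle arrest, 2 were higher (1.64% of all tested genes were) and 5 did not pass. Among the latter, the inhibitor gene Cdkn2c, named after its values were seen, was lower in every KO than in every WT sample, at 69.35% of WT (adjusted p-value in limma 0.0396). Cdkn2a (167.3% of WT, adjusted p-value in limma 0.00562) and Trp53 (115% of WT, 0.149), also named after their values were seen, were higher in every KO sample. Cdkn1a, which encodes the inhibitor p21, rose from 267 ± 32.3 to 469 ± 18.9 TPM (SD, n = 3 each; log2 fold change 0.82, adjusted p-value in limma 0.000797), and Cdkn2b, which encodes p15, rose from 52.0 ± 9.11 to 93.0 ± 4.19 TPM (log2 fold change 0.84, adjusted p-value in limma 0.00179). The part of these differences in the levels of the lamina genes was not tested.

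**Figure D4:**
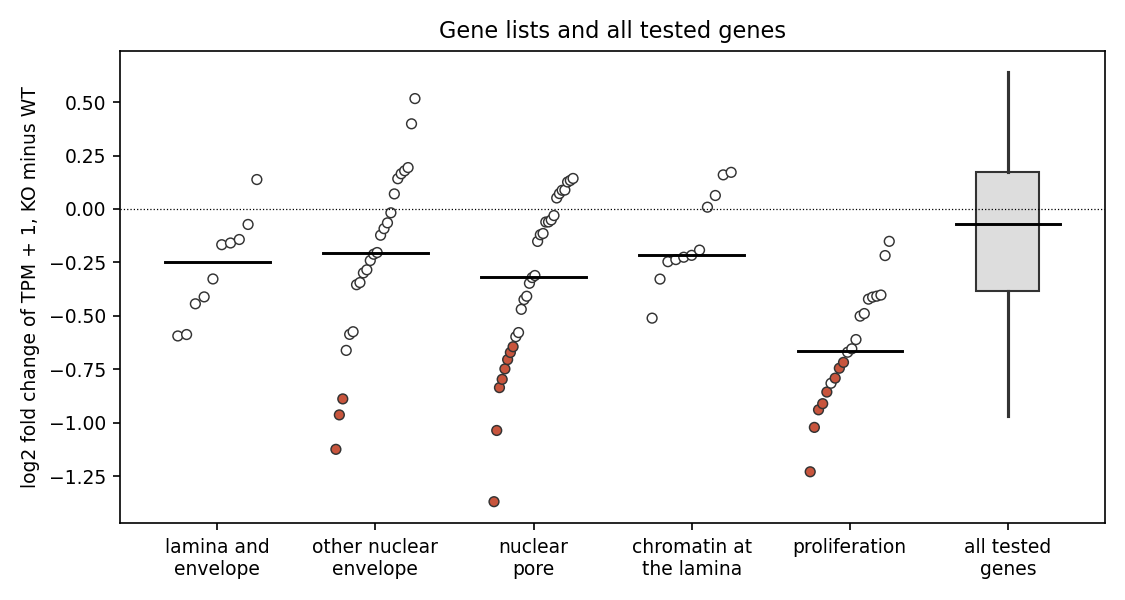
Each tested gene of 5 lists by its log2 fold change between KO and WT, with filled points for genes past the thresholds and a bar at each median. The box for all tested genes spans the 25th to 75th percentiles with lines to the 5th and 95th percentiles. Medians are -0.25 for the lamina and envelope genes, -0.32 for the pore genes and -0.66 for the proliferation genes, against -0.07 for all tested genes.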

How the data were processed

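RNA of 6 MEF samples was sequenced by the authors and aligned to mm10 with STAR, per the methods. The submitters' processing notes list Bowtie 0.12.2, and the counting program and its version are not given in the sources used here. The authors deposited 1 table of 26898 genes with expression as TPM, each sample summing to 1000000. Columns with a log2 fold change and adjusted p-value from the authors' own comparison were not used. Groups were read from the sample titles. The labels do not say that the samples came from separate animals, while the methods name 3 mice per group.

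The members and gene lists were chosen with earlier results of these data known. Genes averaging 1 TPM or more in WT or in KO were kept (14799). Values on the log2(TPM + 1) scale entered limma 3.58.1 (R 4.3.3), with a variance trend, no covariate and Benjamini-Hochberg adjustment over all of them. The study's own test needs counts and was not run, neither on the deposited TPM nor on the reads recovered from them. Fold changes on the log2(TPM + 1) scale understate the change of low genes. Intervals are at 95%. Whole reads were recovered from TPM and the merged exon length in GENCODE M21 (100% of the values checked were whole within 0.05) and were used for depth and 1 alternative. The check was limited to lower read counts and did not reach those of Lmna, Lmnb1 or Tmpo. No 2 replicates agreed within counting noise, with a chi-square per degree of freedom of 4.0 to 29.3 over genes. The fit was tested on simulated data. A first simulation changed a small set of genes. Some changed by about as much as the lamina genes with the largest folds, and some by more. The fit recovered none of either size. That set was far smaller than the number of genes called in the measured data. A smaller set makes the adjusted p-value limit harder to reach. The first simulation therefore does not show what the fit could recover in the measured data. Larger changes and a larger set were simulated afterwards, and nothing is concluded from them here. In the measured data 1579 of the 14799 tested genes (10.7%) passed. A gene that does not pass is still not shown to be unchanged. The printed promoters were likewise settled after the motif matches were seen. Named were all 10 members and Kansl1. Of each other list, up to 4 called genes with the largest fold were named, or the 2 largest where fewer than 2 were called. Cdkn2c, Cdkn2a, Trp53, Lemd2 and Lpin1 fall outside this rule and were named after their values were seen. Cell type markers were given by range. Promoters came from RefSeq on GRCm38.p6, the assembly of mm10.

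Alternatives were a pseudocount of 0.1, no filter, a filter at 10 TPM, no variance trend, median-of-ratios scaling, removal of the most abundant RNA, voom on recovered reads, other thresholds and leaving out each sample.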

Additional observations from a re-analysis of the deposited data

How the results depend on the processing

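No paired analysis was made, because the labels name no litters or pairs and no replicate number occurs in both groups. Whether WT and KO samples shared a litter is therefore not known. Against 0 lower lamina and envelope genes, 2 (Lbr and Tmpo) were lower with a filter at 10 TPM, with voom, without Gm23935, and when the adjusted p-value limit was 0.05 and the fold limit stayed (16.6% of all genes). With no fold threshold 4 were lower at 0.05 (20.7% of all genes). Without Gm23935 as well, a setting chosen after seeing the data, 5 were lower (27.2% of all genes) and 1, Lmna, was higher (13% of all genes). Fits without 1 sample, and the fit without both WT 8 and KO 3, also chosen after seeing the data, gave 0. In the latter no gene of the table was called lower. Lemd3 turned positive with median-of-ratios scaling (0.020) and without KO replicate 3 (0.00046), and ranged from -0.14 to 0.00046 in fits without 1 sample. The other 9 genes kept their direction in every alternative run, and so did Kansl1 and the 3 ratios. Against 4 genes with every KO sample below every WT sample and 0 above, 8 and 1 were found without Gm23935, and 6 and 1 with median-of-ratios scaling, both counts added after seeing the data. The fewest reads on any of these genes in a sample was 395, and whether depth limited the calls was not tested.

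Against 1337 lower and 242 higher genes in the whole table, testing all genes gave 286 and 55, voom gave 2152 and 433, and median-of-ratios scaling gave 460 higher. Fits without 1 sample gave 617 to 938 lower and 84 to 252 higher. The pore list, with 8 lower genes, had 2 with all genes tested, 3 with no variance trend and 2 to 5 without 1 sample. The list of other envelope genes, with 3 lower, had 0 with all genes tested, 5 lower and 1 higher with voom, and 0 to 3 without 1 sample. The proliferation list, with 8 lower, had 0 with all genes tested, 13 with a filter at 10 TPM, 2 with no variance trend and 2 to 9 without 1 sample. The causes were not tested.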
